A study of Mus musculus with 17 samples.

Results

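Sel1l3 and Map9 are 2 of the 31091 genes with an identifier in the count table, and their messenger RNA was followed in splenic dendritic cells of the mouse that had met dead tumor cells. Both genes were chosen by earlier results of these data: Sel1l3 as among the largest rises when debris was added, and Map9 as among the largest rises with necroptotic over apoptotic debris in both dendritic cell subsets. The values that chose them are therefore given as a description with no test, as is the response of Map9 to BimS over WT medium, since its BimS samples were one side of that choice, and the level of Sel1l3 with WT medium in the 2 subsets. The difference of Sel1l3 between the 2 kinds of debris is also given with no test, since both sides entered the choice of the gene. For the members, a test is kept for Map9 between cDC1s and cDC2s without debris. Both genes passed the filter on low counts in every fit.

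Spleens came from 8-week-old female C57BL/6JRj mice that carried a subcutaneous B16 melanoma producing FLT3L, a growth factor that expands dendritic cells, and the spleens of at least 2 mice were pooled per experiment. CD11c+ cells were enriched on magnetic beads and kept for 6 h, with GM-CSF, in the uncentrifuged medium of an equal number of TC-1 cells, a lung epithelial tumor line of C57BL/6 origin that carries HPV16 E6 and E7 and H-ras. The medium came from live WT cells, from TC-1-iBimS cells dying by apoptosis or from TC-1-iRIPK3 cells dying by necroptosis, and is called WT, BimS or RIPK3 here. The inducer cumate was given to all 3 lines. TC-1-iBimS and TC-1-iRIPK3 are each a clonal line made with lentivirus, in which cumate switches on BimS or a RIPK3 fused to a domain that makes it oligomerize, and WT cells carry neither construct. cDC1s and cDC2s were then sorted, and polyadenylated RNA was sequenced from 3 samples of each subset with each medium, except for cDC2s with RIPK3 medium, of which there were 2. The reads counted on genes were between 16095159 and 21645289 per sample, with a median of 18986002.

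cDC1s are known for presenting antigen of dead cells to CD8+ T cells, and cDC2s for presenting antigen to CD4+ T cells. Sel1l3 encodes a membrane protein with Sel1-like repeats, of the family of SEL1L, which is the adaptor of the ubiquitin ligase HRD1 in the degradation of misfolded proteins of the endoplasmic reticulum (ERAD). Map9 encodes a microtubule-associated protein, also called ASAP, that binds microtubules in interphase and the spindle in mitosis, and that is also known from the microtubule doublets of cilia.

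The sorted cells carried the markers of their labels. The summed level of 8 cDC1 markers, among them Xcr1 and Clec9a, was 1353 to 1677 CPM (counts scaled to library size with TMM factors) in cDC1 samples and 77.1 to 105 CPM in cDC2 samples, and that of 7 cDC2 markers, among them Sirpa and Clec10a, was 2.33 to 4.02 CPM in cDC1 samples and 286 to 374 CPM in cDC2 samples. In their own subsets these sums went with the media. The cDC1 sum was 1509 to 1677 CPM with WT and 1353 to 1428 CPM with RIPK3 medium. For the cDC2 sum these were 326 to 374 and 286 to 321 CPM. With RIPK3 over WT medium, 4 of 8 cDC1 markers were higher and 3 lower without overlap. Of the 7 cDC2 markers 1 was higher and 4 were lower. With BimS medium both sums overlapped those with WT medium. Markers of other cells were low, but some of their sums went with the media too. The 9 measured markers of B and plasma cells summed to at most 2.98 CPM in any sample, and in cDC1s to 1.64 to 2.16 CPM with WT, 0.841 to 1.24 CPM with BimS and 2.07 to 2.42 CPM with RIPK3 medium. The 7 of macrophages, among them C1qa and Vcam1, summed in cDC1s to 3.26 to 6.96, 1.496 to 2.53 and 2.78 to 4.66 CPM with the 3 media, and in cDC2s to 4.98 to 11.9, 4.93 to 5.54 and 6.14 to 9.26 CPM. With RIPK3 medium these sums were thus above those with BimS medium without overlap, for macrophages in both subsets and for B and plasma cells in cDC1s. The 6 markers of T and NK cells summed to at most 1.23 CPM, and no sample of a group with debris was above the highest with WT medium of its subset. The 5 markers of plasmacytoid dendritic cells summed to 54.3 to 66.0 CPM in cDC1s and to 173 to 217 CPM in cDC2s, most of it from Tcf4 and Bst2, while Siglech was at 0.688 CPM or less in every sample. In cDC1s this sum was at 60.6 CPM or more with WT medium and at 60.5 CPM or less with debris, in cDC2s it was lowest with RIPK3 medium, at 173 to 175 CPM, and the part of these markers in the results was not tested. The 9 measured markers of the epithelial tumor line summed to 4.00 to 5.09 CPM with WT medium, 4.49 to 5.00 CPM with BimS medium and 3.74 to 5.42 CPM with RIPK3 medium in cDC1s. In cDC2s they summed to 31.2 to 40.04, 22.5 to 35.5 and 20.2 to 25.9 CPM, most of it from Cdh1, the gene of E-cadherin, which was at 29.4 to 37.7 CPM with WT and at 16.8 to 24.1 CPM with RIPK3 medium. Without Cdh1, the other 8 summed in cDC2s to 1.56 to 2.35, 1.42 to 2.37 and 1.82 to 3.49 CPM, which overlapped. Col4a2, a collagen gene, was higher with RIPK3 than with WT medium in cDC2s without overlap, at 0.586 to 1.10 against 0.257 to 0.574 CPM, from 10 to 17 against 5 to 10 counts. Cldn4, a tight junction gene, was at 0 in all cDC1 samples, and Krt7, a keratin gene, was at 0 in all cDC2 samples. The part of RNA from tumor cells in the results was not tested, and the level of Sel1l3 and Map9 in TC-1 cells was not measured here. In such bulk samples, fewer cells that make a transcript and less of it per cell cannot be told apart.

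Sel1l3 (ENSMUSG00000029189) lies on the minus strand at chr5:53264417-53371269 of GRCm39, with 15499 bases of annotated exons. Its annotation overlaps the lncRNA gene Gm30464 on the other strand, also in exons, and the counting is not stated to use strand. Map9 (ENSMUSG00000033900) lies on the plus strand at chr3:82265320-82302575 of GRCm39, with 7362 bases of annotated exons and no overlapping gene. RefSeq's table of promoter windows holds 2 overlapping windows for Map9, each from 250 bases before to 50 bases after a transcription start. The second, at chr3:82357937-82358236 on the plus strand of the older build GRCm38.p6, is shown because it holds 2 matches to the outline of an X-box, and it was picked for them after its letters had been read. Capitals mark the matches to TGANNTCA and to GTTNCC followed after 2 or 3 bases by GNAAC, searched on both strands.

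Map9 promoter window: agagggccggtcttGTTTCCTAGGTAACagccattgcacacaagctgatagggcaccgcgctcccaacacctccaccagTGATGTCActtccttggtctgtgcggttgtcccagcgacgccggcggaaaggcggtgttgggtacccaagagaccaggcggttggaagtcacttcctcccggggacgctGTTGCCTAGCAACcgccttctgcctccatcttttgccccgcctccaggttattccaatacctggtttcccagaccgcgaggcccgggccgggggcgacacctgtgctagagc

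The window has a GC content of 61.7%. The match to TGANNTCA, the outline of a CRE with 2 free bases, stands at positions 80 to 87, counted from 1 at the 5′ end, and 14.1% of the 32851 promoter windows of the mouse hold such a match. The pattern of GTTNCC and GNAAC is the outline of an X-box, the element bound by RFX factors, which are known for ciliary and MHC class II genes. It stands at positions 15 to 28 and 189 to 201, and 1.47% of windows hold it at least once and 13 windows, or 0.0396%, at least 2 times. Since the window was picked for this pattern, the share describes the windows and is no measure of how unusual this one is. The first Map9 window, at chr3:82357822-82358121, holds only the first of these matches. GGAAGT, the core of ETS sites, matched 3 times and is held by 23.8% of windows, with 1 of its matches sharing a base with the CRE-like match. The full CRE TGACGTCA (1.79% of windows), the E-box CACGTG (7.15%), the AP-1 site TGANTCA (7.81%) and the antioxidant element outline TGACNNNGC (12.4%) were not found in these letters. The patterns were picked after the window had been read, no binding was measured here, and a match is a description of letters only.

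Sel1l3 was low without debris and several times higher with either kind. In cDC1s with WT medium, its level was 1.30, 1.73 and 0.943 CPM in replicates 1, 2 and 3, from 26, 34 and 21 counts. With BimS medium the cDC1 samples had 10.6, 11.7 and 12.9 CPM, and with RIPK3 medium 19.3, 14.7 and 20.2 CPM. The 3 media did not overlap in cDC1s: the lowest sample with RIPK3 debris was above the highest with BimS debris, and all samples with debris were above those with WT medium.

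In cDC2s with WT medium, Sel1l3 was measured at 2.00, 2.93 and 3.02 CPM, from 39, 51 and 56 counts. With BimS medium the cDC2 samples had 10.1, 10.7 and 12.2 CPM, and the 2 with RIPK3 medium 11.7 and 13.2 CPM. Here too every sample with debris was above every sample with WT medium, but the samples of the 2 kinds of debris overlapped.

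The mean of Sel1l3 in cDC1s was 1.32 ± 0.394 CPM (SD, n = 3) with WT medium, 11.7 ± 1.15 CPM (n = 3) with BimS medium and 18.1 ± 2.94 CPM (n = 3) with RIPK3 medium. In cDC2s the means were 2.65 ± 0.563 CPM (n = 3), 11.0 ± 1.10 CPM (n = 3) and 12.4 ± 1.05 CPM (n = 2). From high to low, the 6 groups were ordered as cDC1s with RIPK3, cDC2s with RIPK3, cDC1s with BimS, cDC2s with BimS, cDC2s with WT and cDC1s with WT medium. The second, the third and the fourth of these overlapped in their samples, whereas the other neighbours in this order did not. The depth limits the lowest values: 21 counts, the fewest of any sample, have a 95% Poisson interval of 13.0 to 32.1 counts, which covers counting error only. The counting error of a single sample was 17.1% to 21.8% in cDC1s with WT medium, where the samples varied by 29.8% (coefficient of variation).

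**Figure D1:**
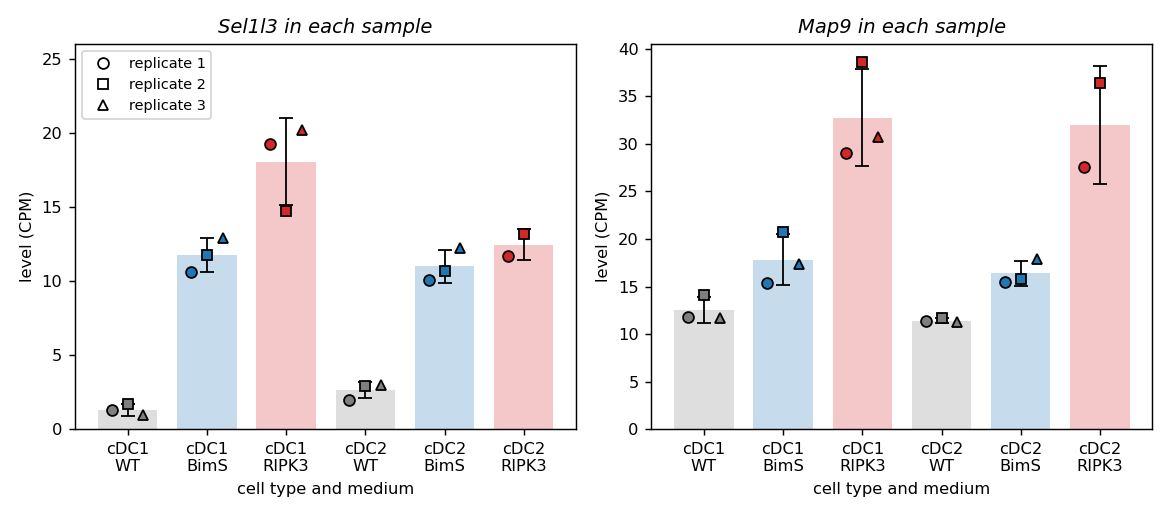
Levels of Sel1l3 (left) and Map9 (right) in CPM, on a linear axis from 0, in cDC1s and cDC2s with WT (grey), BimS (blue) and RIPK3 (red) medium. Symbols are single samples, with the shape giving the replicate number, bars are means and error bars are SD (n = 3, and n = 2 for cDC2s with RIPK3 medium). Sel1l3 rests at 0.943 to 3.02 CPM with WT medium and at 10.1 CPM or more with debris, whereas Map9 starts from 11.2 to 14.1 CPM and is highest with RIPK3 medium in both subsets.

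On the log2 scale of the fit, the values that chose Sel1l3 were as follows, with no test. The difference of BimS from WT medium was 3.16 (SE 0.177), or 8.93-fold, in cDC1s, where 13.2% of the 19513 genes tested were called in this comparison at an adjusted p under 0.05. RIPK3 over WT medium was 3.78 (SE 0.168), or 13.7-fold, in cDC1s, beside 16.5% of genes called. In cDC2s the same differences were 2.05 (SE 0.166), or 4.15-fold, and 2.23 (SE 0.178), or 4.68-fold, beside 7.01% and 7.21% of 19239 genes called. The comparisons with WT medium share their WT samples. Within a replicate number, BimS was 8.18, 6.78 and 13.7 times WT in cDC1s and 5.05, 3.65 and 4.05 times WT in cDC2s. The excess of the BimS difference in cDC1s over that in cDC2s was 1.10 on the log2 scale, and it was not tested, since both differences had chosen the gene. In this comparison of the subsets 0.87% of 19082 genes were called.

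Among the genes that were higher, called, had a mean log2 CPM of 3 or more and did not overlap between the groups, Sel1l3 stood 3rd of 1117 for BimS over WT medium in cDC1s. This rank is a description, since it rests on the comparison that chose the gene, and Sel1l3 passed the mean level (3.37 in cDC1s and 3.04 in cDC2s) only through the samples with debris. Just above it among these 1117 genes were Ppbp, a platelet chemokine gene (4.73), and Spic, a transcription factor of red pulp macrophages (3.56). Just below it were Hmox1, the heme oxygenase that degrades heme (3.05), and Pla2g7, which inactivates platelet-activating factor (3.03). For RIPK3 over WT medium in cDC1s it was 2nd of 1247, after Ppbp (4.51) and before Hmox1 (3.44) and the chemokine gene Cxcl3 (3.35). In cDC2s it was 8th of 578 for BimS and 8th of 586 for RIPK3 over WT medium, with the same requirements. Over all genes tested, with no call or level required, its fold change stood 59th for BimS and 45th for RIPK3 over WT medium of 19513 in cDC1s, and 238th and 240th of 19239 in cDC2s.

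The difference of Sel1l3 between the 2 kinds of debris is given with no test, since both sides had entered the choice of the gene. In cDC1s its level was 1.53-fold higher with RIPK3 than with BimS debris, or by 0.62 on the log2 scale (SE 0.118), where 4.15% of genes were called. The ratio of RIPK3 to BimS within a replicate number was 1.82, 1.25 and 1.57, above 1 in 3 of 3 pairs. In the same comparison the sums of macrophage and of B and plasma cell markers were higher too, as given above. The log2 value was 0.53 with limma on log2(count + 1) and 0.59 with limma on the deposited normalized values. Over all alternatives it ranged from 0.53 to 0.75.

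In cDC2s the log2 fold change of RIPK3 over BimS was 0.17 (SE 0.156), with 0.379% of genes called. It was also given no test, and the samples of the 2 kinds of debris overlapped. Over the alternatives the log2 value ranged from 0.07 to 0.26, and it was 0.079 without RIPK3 replicate 2. The ratios within a number were 1.16 and 1.23. The difference of this value between cDC1s and cDC2s was 0.44 (SE 0.206) on the log2 scale, in a comparison in which 0.0314% of genes were called. It was not tested, since these debris samples had entered the choice.

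The level of Sel1l3 with WT medium is given with no test, because the choice of the gene for its rise over WT medium used these samples, and the rise was larger in cDC1s. The log2 fold change of cDC1s over cDC2s without debris was -1.01 (SE 0.235), or 0.498-fold, and the samples of the subsets did not overlap. It ranged from -1.24 to -0.79 over the alternatives. In this comparison 46.2% of 19082 genes were called.

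Map9 was detected in every sample and was highest with RIPK3 debris in both subsets. In cDC1s, its level with WT medium was 11.8, 14.1 and 11.7 CPM in replicates 1, 2 and 3. With BimS medium it was 15.4, 20.7 and 17.3 CPM, and with RIPK3 medium 29.0, 38.6 and 30.7 CPM. The groups of cDC1s did not overlap, and replicate 2 was the highest in each of the 3 media.

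In cDC2s, Map9 was measured at 11.3, 11.7 and 11.2 CPM with WT medium, at 15.5, 15.8 and 17.9 CPM with BimS medium and at 27.6 and 36.3 CPM with RIPK3 medium. Every sample with BimS medium was above every one with WT medium and below both with RIPK3 medium.

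The means of Map9 in cDC1s were 12.5 ± 1.39 CPM (SD, n = 3) with WT, 17.8 ± 2.696 CPM (n = 3) with BimS and 32.8 ± 5.10 CPM (n = 3) with RIPK3 medium. In cDC2s they were 11.4 ± 0.250 CPM (n = 3), 16.4 ± 1.33 CPM (n = 3) and 31.9 ± 6.21 CPM (n = 2). The order of the 6 groups thus went by medium, from RIPK3 to BimS to WT. The samples of cDC1s and cDC2s overlapped with RIPK3 and with BimS medium, and with WT medium the lowest cDC1 sample (11.72 CPM) was just above the highest cDC2 sample (11.70 CPM). Between 204 and 768 counts stood behind each value, for which the counting error was 3.61% to 7.00%. The samples of cDC2s with WT medium varied by 2.18%, less than the counting error of a single sample, and the 2 with RIPK3 medium by 19.4%.

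The response of Map9 to apoptotic debris is given with no test, because a gene chosen for a high RIPK3 over BimS value has its BimS samples on one side of the choice. In cDC1s, Map9 with BimS medium was 1.42 times its level with WT medium, or 0.51 on the log2 scale (SE 0.132), in a comparison in which 13.2% of genes were called. The ratios within a replicate number were 1.31, 1.46 and 1.48, above 1 in 3 of 3 pairs. Over the alternatives the log2 value ranged from 0.38 to 0.60.

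In cDC2s, Map9 with BimS medium was 1.43 times its level with WT medium, or 0.52 on the log2 scale (SE 0.122), beside 7.01% of genes called. The ratios within a number were 1.36, 1.35 and 1.59, and over the alternatives the log2 value ranged from 0.42 to 0.56. The difference between the subsets in this value was -0.01 (SE 0.182), and its sign turned in 6 of 25 alternatives.

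With WT medium alone, which the choice of Map9 did not use, Map9 in cDC1s was 0.13 above that in cDC2s on the log2 scale (SE 0.133; interval -0.14 to 0.41), which did not pass the test (adjusted p = 0.449 by edgeR). Over the alternatives the value ranged from 0.04, without WT replicate 2 of cDC1s, to 0.29, with limma on log2(count + 1).

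The values that chose Map9 are again given with no test. RIPK3 over BimS debris was 0.88 (SE 0.121) on the log2 scale, or 1.84-fold, in cDC1s and 0.96 (SE 0.127), or 1.94-fold, in cDC2s. The share of genes called in these 2 comparisons was 4.15% and 0.379%. The sum of macrophage markers was higher in both too, as given above. RIPK3 over WT medium, which shares the RIPK3 samples with the choice, was 1.39 (SE 0.126), or 2.62-fold, in cDC1s and 1.48 (SE 0.129), or 2.78-fold, in cDC2s. Within a replicate number, RIPK3 was 1.88, 1.86 and 1.77 times BimS in cDC1s and 1.78 and 2.31 times BimS in cDC2s. The difference of the RIPK3 over BimS values between cDC1s and cDC2s was -0.09 on the log2 scale, and it turned to 0.0397 without BimS replicate 2 of cDC1s and to 0.127 without RIPK3 replicate 2 of cDC2s.

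Among the higher genes that were called, had a mean log2 CPM of 3 or more and did not overlap, Map9 stood 2nd of 324 for RIPK3 over BimS in cDC1s, again a description in the comparison that chose it. Among these 324 genes, Traf4, a signaling adaptor, was above it with 0.93, and Ddit4, an inhibitor of mTORC1 (0.82), and Tex14, a gene of intercellular bridges in the germline (0.81), were just below it. In cDC2s it was 1st of 27, before the clock gene Per1 (0.87) and Chac1, which degrades glutathione (0.81). Over all genes tested, with no call or level required, the fold change of Map9 stood 1040th of 19513 in cDC1s and 1252nd of 19239 in cDC2s. Sel1l3, for comparison, stood 9th of the 324 in cDC1s. In the rankings against WT medium with the same requirements, Map9 stood 59th of 1247 in cDC1s and 33rd of 586 in cDC2s for RIPK3, and 313th of 1117 and 268th of 578 for BimS. Over all genes tested it stood 717th and 675th for RIPK3 and 2763rd and 2668th for BimS over WT medium.

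**Figure D2:**
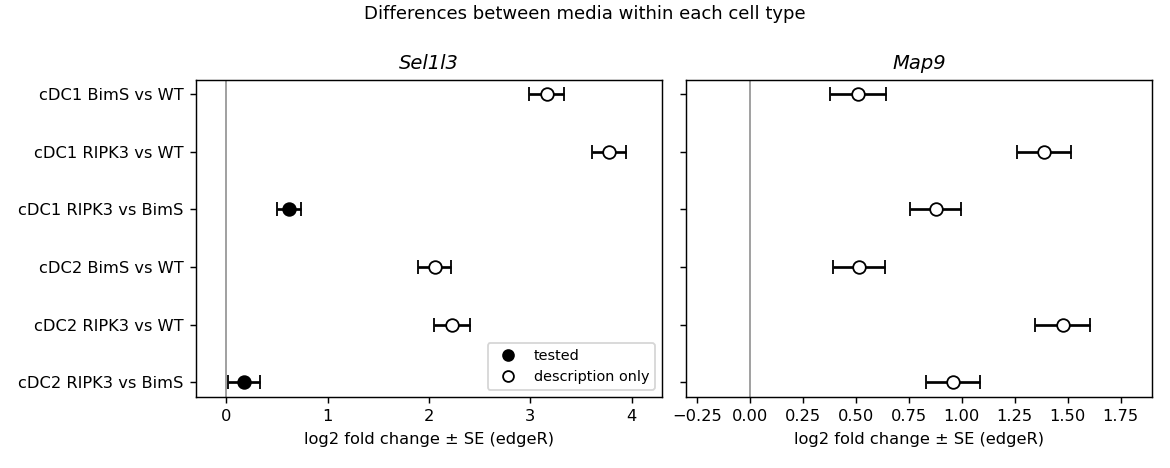
Log2 fold changes (horizontal axis) of Sel1l3 (left) and Map9 (right) for the 6 comparisons of media, with bars of 1 SE from edgeR. All values are given as a description, also the filled symbols of Sel1l3 between the 2 kinds of debris, which the legend labels as tested. For Sel1l3 the values against WT medium (2.05 to 3.78) are far larger than those between the 2 kinds of debris (0.17 and 0.62), whereas for Map9 RIPK3 over BimS (0.88 and 0.96) is larger than BimS over WT (0.51 and 0.52). The horizontal scales of the panels differ.

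Per kilobase of annotated exon, Sel1l3 was the scarcer of the pair. This length joins the exons of all annotated transcripts and may differ from that of the transcripts present, so levels of different genes compare only roughly. Its mean level was 0.0853 CPM per kb in cDC1s and 0.171 in cDC2s with WT medium, against 1.70 and 1.55 for Map9. With RIPK3 medium the values were 1.17 and 0.803 for Sel1l3 and 4.45 and 4.34 for Map9. Sel1l (ENSMUSG00000020964, chr12:91772799-91815982 of GRCm39), the ERAD adaptor of the same family, had a level of 18.5 to 21.8 CPM per kb in the 6 groups. It passed the test in none of the 6 comparisons of media, with log2 fold changes from -0.23 to 0.24 and adjusted p from 0.0891 to 0.988. Sel1l2 was not analysed here.

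The genes whose pattern was most like that of each member were ranked by Pearson's r over the 17 samples, on log2 CPM less the mean of each cell type, among genes with an average of at least 3. These correlations are a description. The samples share media, subsets and replicate numbers, so that any gene that follows the media reaches a high r. Closest to Sel1l3 were Gclm, a subunit of the enzyme that makes glutathione (r = 0.987), Srxn1, which repairs oxidized peroxiredoxins (0.985), the esterase gene Esd (0.984), the receptor gene Trem4 (0.984), the small GTPase gene Rab10 (0.982) and Ubap1, of the ESCRT sorting machinery (0.982). Gclm had a level of 224 ± 13.6 CPM in cDC1s with WT medium, 879 ± 33.4 CPM with BimS and 1006 ± 25.1 CPM with RIPK3 medium, and its log2 fold change of BimS over WT was 1.97 in cDC1s and 1.49 in cDC2s. Trem4 went from 16.2 ± 1.37 to 61.6 ± 1.91 and 65.9 ± 4.35 CPM in cDC1s and from 57.1 ± 8.54 to 110 ± 14.2 and 112.4 ± 11.0 CPM in cDC2s. Within each subset, all samples with debris were above all samples with WT medium for each of these 6 genes. Between the subsets this did not hold for every gene: Esd was at 921 to 1214 CPM in cDC2s with WT medium and at 676 to 833 CPM in cDC1s with debris.

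Closest to Map9 were Ifrd1, a transcriptional co-regulator (r = 0.983), the orphan nuclear receptor gene Nr4a2 (0.969), Lmbrd1, which exports cobalamin from lysosomes (0.960), Vps37b, of ESCRT-I (0.957), the small membrane protein gene Smim3 (0.953) and Sipa1l2, a GTPase-activating protein gene (0.951). Ifrd1 had a level of 136 ± 11.1, 165 ± 11.8 and 231 ± 18.9 CPM with WT, BimS and RIPK3 medium in cDC1s and of 251 ± 9.13, 310 ± 3.52 and 434 ± 14.6 CPM in cDC2s. Nr4a2 stood at 357 ± 18.4, 393 ± 32.8 and 498 ± 37.6 CPM in cDC1s and at 97.8 ± 2.03, 118 ± 6.10 and 170 ± 10.1 CPM in cDC2s. On average both were highest with RIPK3 and lowest with WT medium in each subset. The r between Sel1l3 and Map9 was 0.796, which placed Map9 629th of 7784 genes in likeness to Sel1l3. With no centring by cell type, 2 of the 6 genes closest to Sel1l3 and 0 of those closest to Map9 were still among the 6.

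**Figure D3:**
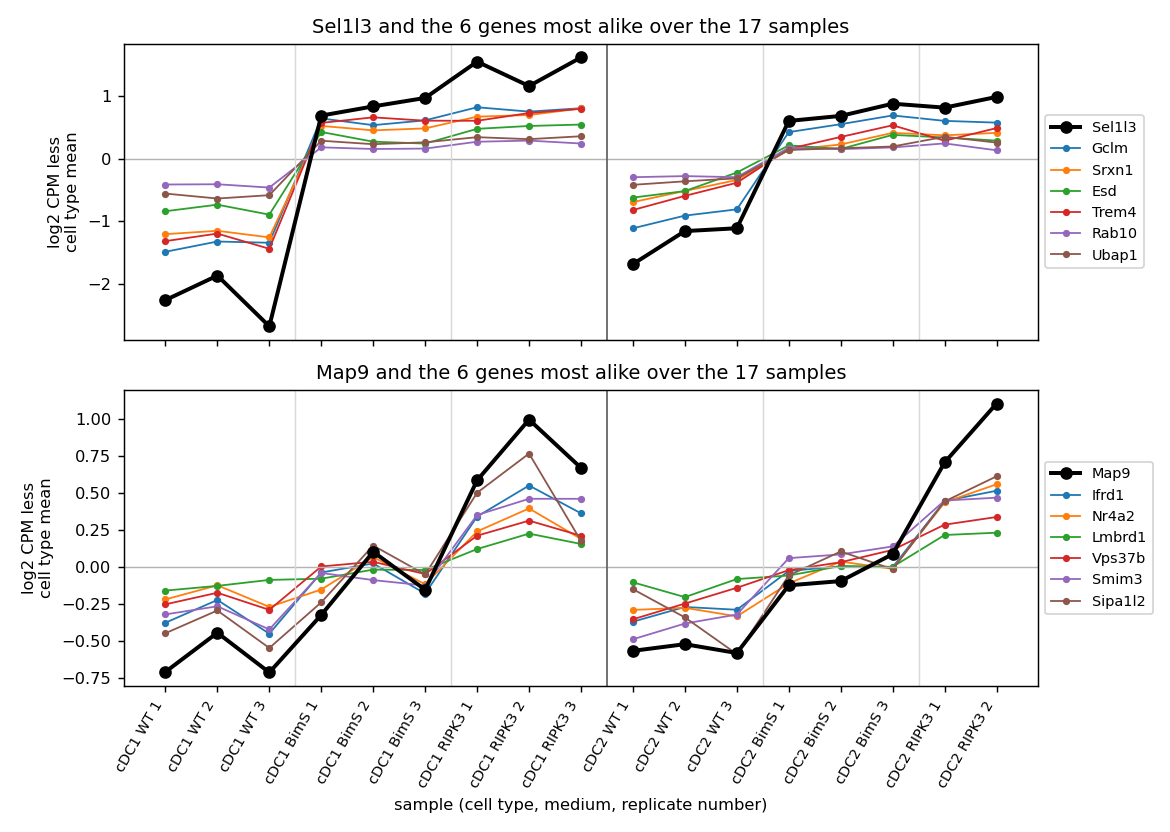
Log2 CPM less the mean of the cell type (vertical axis) in each of the 17 samples, for Sel1l3 with the 6 genes most like it (top) and Map9 with its 6 (bottom). Black lines are the members, colored lines the other genes, and vertical lines part the groups. Lines join samples to guide the eye and mark no order among replicates. The genes most like Sel1l3 step between WT medium and debris, and those most like Map9 are highest in the RIPK3 samples of each subset.

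To place the members among genes of related function, 6 lists were counted. A list's count is read against the share of all genes called in the same fit. With the replicate number as a block, which pairs the samples, that share rose to 17.9%, 21% and 8.87% in cDC1s and to 21.3%, 21.4% and 14.3% in cDC2s, for BimS over WT, RIPK3 over WT and RIPK3 over BimS. With limma on log2(count + 1), which does not scale for depth, it was 7.74%, 14.1% and 2.07% in cDC1s and 5.5%, 8.32% and 0.769% in cDC2s. With DESeq2 it was 11.9%, 14.8% and 4.01% in cDC1s and 6.91%, 7.3% and 0.733% in cDC2s, and with limma on the deposited normalized values 14.6%, 19.5% and 3.72% and 8.38%, 8.44% and 0.322%. At an unadjusted p under 0.05 with edgeR it was 22.9%, 26.3% and 15.5% in cDC1s and 18.2%, 18.5% and 8.59% in cDC2s. These shares include genes of low counts. With filterByExpr, which kept 13243 genes in cDC1s and 12978 in cDC2s, more of them were called against WT medium. That share was 20.1%, 25.1% and 6.07% in cDC1s and 10.7%, 11% and 0.354% in cDC2s. In the ERAD list, of which 30 genes were tested, 10 rose and 1 fell in cDC1s with BimS over WT medium, and 13 rose and 1 fell with RIPK3 over WT medium, where 13.2% and 16.5% of all genes were called. These 11 and 14 calls became 4 and 5 with limma on log2(count + 1), 6 and 9 with limma on the deposited normalized values, beside 14.6% and 19.5% of all genes, and 8 and 15 with DESeq2, beside 11.9% and 14.8%. The median log2 fold changes were 0.09 and 0.14, beside medians over all genes of 0.00 and -0.01. Vcp, the ATPase that pulls proteins out of the membrane, rose by 0.44 (adjusted p = 2.41e-09) with BimS debris in cDC1s and by 0.38 (adjusted p = 0.00346) in cDC2s. Ubxn8, which tethers Vcp to the membrane, rose by 0.86 (adjusted p = 1.68e-06) in cDC1s and 0.67 (adjusted p = 0.00043) in cDC2s. Rnf5, a ubiquitin ligase, was the one that fell in cDC1s, at -0.32 for BimS (adjusted p = 0.000752) and -0.34 for RIPK3 over WT medium (adjusted p = 0.000258).

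Between the 2 kinds of debris in cDC1s, 4 ERAD genes rose and 1 fell, beside 4.15% of all genes called, and 1 of these 5 calls was left with limma on log2(count + 1). DESeq2 gave 4 calls, beside 4.01% of all genes, and limma on log2 CPM 5, beside 3.79%. The one that fell was Derl3, of the derlin family, at -1.25 on the log2 scale (adjusted p = 0.00187), from a mean of 2.26 CPM with BimS medium. In cDC2s, 4 ERAD genes rose with BimS and 5 with RIPK3 over WT medium, beside 7.01% and 7.21% of all genes and with 1 call each in limma on log2(count + 1), and 0 passed between the kinds of debris with edgeR, beside 0.379% of all genes, against 5 at an unadjusted p under 0.05 (8.59% of all genes), 0 with DESeq2 and 0 with limma. With the replicate block these 3 counts of cDC2s were 13, 16 and 9, beside 21.3%, 21.4% and 14.3% of all genes. Against WT medium in cDC2s, DESeq2 gave 4 and 8 ERAD calls, beside 6.91% and 7.3% of all genes. Limma on log2 CPM gave 4 and 5 there, beside 6.43% and 6.89%.

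Of 20 genes of folding in the endoplasmic reticulum and of the unfolded protein response, 7 rose and 1 fell with BimS and 9 rose and 3 fell with RIPK3 over WT medium in cDC1s, beside 13.2% and 16.5% of all genes called. These 8 and 12 calls became 2 and 2 with limma on log2(count + 1) and 4 and 8 with limma on the deposited normalized values, beside 14.6% and 19.5% of all genes. They stayed 8 and 12 with DESeq2, beside 11.9% and 14.8%, and with limma on log2 CPM, beside 12.4% and 16.1%. With the replicate block they were 12 and 13, beside 17.9% and 21%. Creld2, a chaperone partner, rose by 0.36 (adjusted p = 5.82e-06) with BimS debris, and Hspa5, the chaperone BiP, by 0.13 (adjusted p = 0.0468) and, with RIPK3, by 0.21 (adjusted p = 0.000653). Atf6, a sensor of the response, fell by 0.27 (adjusted p = 0.000213 and 0.000247). Between the kinds of debris 0 of the 20 passed in cDC1s with edgeR, beside 4.15% of all genes, against 3 at an unadjusted p under 0.05 (15.5% of all genes), 0 with DESeq2, 0 with limma and 2 with the replicate block, beside 8.87%. In cDC2s 0 passed in any of the 3 comparisons with edgeR, beside 7.01%, 7.21% and 0.379% of all genes, against 4, 3 and 2 at an unadjusted p under 0.05 (18.2%, 18.5% and 8.59% of all genes), 2, 2 and 0 with DESeq2 (6.91%, 7.3% and 0.733%) and 0 with limma. With the replicate block 10, 10 and 4 passed there, beside 21.3%, 21.4% and 14.3% of all genes.

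For Map9, the first list held genes of other microtubule-associated proteins, of which 37 were tested in cDC1s and 38 in cDC2s. In cDC1s 6 rose and 2 fell with BimS and 6 rose and 4 fell with RIPK3 over WT medium, beside 13.2% and 16.5% of all genes called. In cDC2s 4 rose and 0 fell and 4 rose and 1 fell, beside 7.01% and 7.21% of all genes called. The 8 calls with BimS in cDC1s became 4 with limma on log2(count + 1), 7 with DESeq2 and 8 with limma on log2 CPM. Over all genes these 3 fits called 7.74%, 11.9% and 12.4%. The largest were Map1a and Map1b, which encode microtubule-binding proteins best known from neurons. Map1b went from 121 ± 14.6 to 263 ± 38.3 CPM with BimS debris in cDC1s (log2 fold change 1.12, adjusted p = 0.00769) and from 11.49 ± 1.14 to 33.1 ± 2.75 CPM in cDC2s (1.53, adjusted p = 1.68e-08). Map1a rose by 2.04 (adjusted p = 0.000366) and 2.38 (adjusted p = 7.53e-05), but from mean levels of 0.242 and 0.743 CPM.

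Between the 2 kinds of debris, the log2 fold change of RIPK3 over BimS in cDC1s was 0.06 for Map1b (adjusted p = 0.933) and -0.39 for Map1a (adjusted p = 0.66). Of the 37 genes 2 passed there, near the 4.15% of all genes. They were Clasp2, which stabilizes the growing ends of microtubules (0.27, adjusted p = 0.00194), and Mapre2, an end-binding protein gene (-0.31, adjusted p = 0.00245). In cDC2s 0 of 38 passed between the kinds of debris with edgeR, beside 0.379% of all genes, against 3 at an unadjusted p under 0.05 (8.59% of all genes), 0 with DESeq2 and 0 with limma, and 5 with the replicate block, beside 14.3%. The block also gave 11 and 10 calls in place of 4 and 5 for BimS and RIPK3 over WT medium in cDC2s, beside 21.3% and 21.4% of all genes.

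Of 15 tubulin genes, 4 rose and 2 fell with BimS and 4 rose and 1 fell with RIPK3 over WT medium in cDC1s, beside 13.2% and 16.5% of all genes called, and 2 rose and 1 fell in both comparisons in cDC2s, beside 7.01% and 7.21%. With limma on log2(count + 1) the calls were 4 and 3 in place of 6 and 5 in cDC1s and 1 and 4 in place of 3 and 3 in cDC2s. DESeq2 gave 5 and 5 in cDC1s, beside 11.9% and 14.8% of all genes, and 3 and 3 in cDC2s, beside 6.91% and 7.3%. Tubb5, a major beta-tubulin gene, was lower with BimS debris in both subsets (log2 fold change -0.73, adjusted p = 0.00391 in cDC1s and -0.74, adjusted p = 8.11e-06 in cDC2s), and Tuba4a, an alpha-tubulin gene, was higher (0.62, adjusted p = 1.47e-07 and 0.36, adjusted p = 0.0268). Between the kinds of debris 0 of the 15 passed in either subset with edgeR, beside 4.15% and 0.379% of all genes, against 3 and 2 at an unadjusted p under 0.05 (15.5% and 8.59% of all genes), 0 with DESeq2, 0 with limma and 1 and 0 with the replicate block, beside 8.87% and 14.3%. Against WT medium in cDC2s the block gave 7 and 8 in place of 3 and 3, beside 21.3% and 21.4% of all genes. Reads of near-identical tubulin genes may have been split by the counting.

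Among 24 genes of kinesin-3 and dynein motors, 4 rose and 1 fell with BimS and 5 rose and 2 fell with RIPK3 over WT medium in cDC1s, beside 13.2% and 16.5% of all genes called, and 3 and 4 rose in cDC2s, beside 7.01% and 7.21%. With limma on log2(count + 1) the calls were 0 and 2 in place of 5 and 7 in cDC1s and 0 and 2 in place of 3 and 4 in cDC2s. DESeq2 gave 4 and 6 in cDC1s, beside 11.9% and 14.8% of all genes, and 3 and 4 in cDC2s, beside 6.91% and 7.3%. The counts of limma on log2 CPM were the same as those of DESeq2. Ndel1, a dynein regulator, rose in all 4 comparisons with WT medium and was the 1 of 24 called between the kinds of debris in cDC1s (0.18, adjusted p = 0.016), near the 4.15% of all genes. In cDC2s 0 of the 24 passed between the kinds of debris with edgeR, beside 0.379% of all genes, against 3 at an unadjusted p under 0.05 (8.59% of all genes), 0 with DESeq2 and 0 with limma, and 9 with the replicate block, beside 14.3%. The block also gave 9 in place of 5 for BimS over WT medium in cDC1s, beside 17.9% of all genes, and 12 and 11 in place of 3 and 4 against WT medium in cDC2s, beside 21.3% and 21.4%.

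Of 15 genes of the mitotic spindle and cell division, 1 rose and 4 fell with BimS and 7 fell with RIPK3 over WT medium in cDC1s, beside 13.2% and 16.5% of all genes called. Cenpe, a kinetochore motor, fell by 0.66 (adjusted p = 0.012) and Kif23, a cytokinesis motor, by 0.33 (adjusted p = 0.000632) with RIPK3 over WT medium. The median log2 fold change of the list was -0.36, while the value of Map9, the spindle protein studied here, was 1.39 in this comparison. Between the kinds of debris 0 of the 15 passed in either subset with edgeR, beside 4.15% and 0.379% of all genes, against 0 at an unadjusted p under 0.05 (15.5% and 8.59% of all genes), 0 with DESeq2, 0 with limma and 0 and 1 with the replicate block, beside 8.87% and 14.3%. In cDC2s 0 passed against WT medium with edgeR, beside 7.01% and 7.21% of all genes, with 3 and 1 at an unadjusted p under 0.05 for BimS and RIPK3 (18.2% and 18.5% of all genes), 0 and 0 with DESeq2, 0 and 2 with limma on log2(count + 1) and 0 and 1 with limma on the deposited normalized values. With the replicate block 5 and 2 passed there, beside 21.3% and 21.4% of all genes, and 8 in place of 5 for BimS over WT medium in cDC1s, beside 17.9%.

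**Figure D4:**
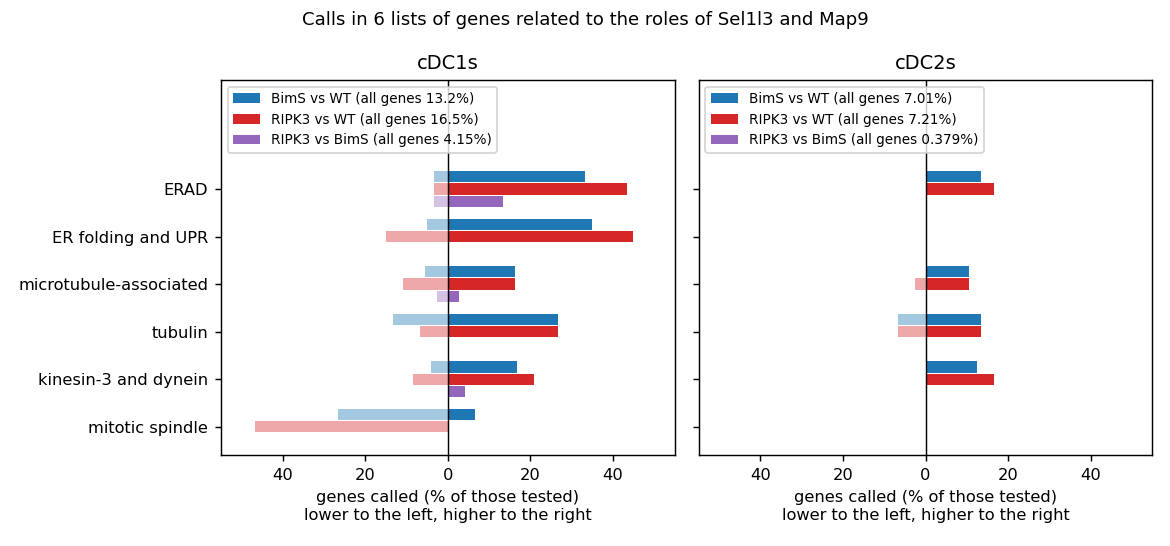
Share of the tested genes of each list that passed the test (horizontal axis, in percent, higher to the right and lower, in pale color, to the left) for BimS over WT (blue), RIPK3 over WT (red) and RIPK3 over BimS (purple) in cDC1s (left) and cDC2s (right). Legends give the share over all genes tested. All calls shown are from edgeR without the replicate block, and the text gives the counts with it. In cDC1s the ERAD list had 10 and 13 of 30 genes higher with the 2 kinds of debris, the mitotic spindle list had 4 and 7 of 15 lower, and between the kinds of debris 5 of 30 ERAD genes and 0 to 2 genes of each other list passed in cDC1s, and 0 of any list in cDC2s.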

How the data were processed

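Counts and normalized values of 17 samples were used. Per the methods and labels, the authors trimmed reads with SeqPurge, aligned them with STAR 2.7.10a to GRCm39 and counted them per gene with gensum, and deposited these counts without normalization. The deposited log2 values were made by the authors from the same counts, scaled by the total of each sample, and served only as an alternative. Of 31239 lines, 148 carry no gene identifier (0.0258% to 0.0366% of counts) and were left out. Of the 31091 identifiers, 30854 were matched to GENCODE M39 for symbols and coordinates.

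Planned tests of Map9 with BimS over WT medium and of Sel1l3 between the subsets in WT medium were dropped, because the choice of the genes had used these BimS and WT samples. Tests of Sel1l3 between the 2 kinds of debris, within and between the subsets, were dropped too, since both sides had entered the choice. The 2 members, the gene lists and the tests were chosen with earlier results of these data known. The study's methods transform the data as log2(count + 1) but name the raw count matrix as the basis of limma. Limma on log2(count + 1) is the reading of them used here. Because the deposited values are counts, the main test was edgeR 4.0.16 (quasi-likelihood, robust, TMM) in R 4.3.3, with 1 fit per cell type and 1 over all samples for cDC1s against cDC2s and the interactions, after removal of genes at 0 in more than 50% of samples. P-values were adjusted by Benjamini-Hochberg over all genes tested, with a threshold of 0.05. CPM used TMM over 17 samples, and log2 CPM a prior count of 2. The fits were tested on simulated data. The methods speak of biological replicates in general and of spleens pooled per experiment. Whether the replicates here came from separate pools is not stated for the sequencing, so p-values measure only the spread between these samples.

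Named genes were the members, their relative Sel1l (Sel1l2, also in the rule, was not analysed here), the 2 nearest genes on each side within 500 kb that passed the filter, the 6 of highest r, the neighbours in rank and the largest called list genes. Hspa5, Kif23 and Rnf5 were named after their values were seen. Marker genes came from the cell type lists.

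Samples of the same number deviated together within a cell type: 9 of 9 pairs in cDC1s and 7 of 7 in cDC2s correlated above 0.1 after removal of group means (medians 0.324 and 0.426), against 1 of 18 and 3 of 14 pairs of different numbers. The numbers were taken to pair the samples on this evidence. Alternatives were DESeq2 1.42.0, RLE size factors, filterByExpr, no filter, limma 3.58.1 on log2(count + 1) with a pseudocount of 1, on log2 CPM and on the deposited values, the replicate block, all samples in one fit, and leaving out each sample.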

Additional observations from a re-analysis of the deposited data

How the results depend on the processing

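The log2 differences of Sel1l3 and Map9 kept their direction under the alternatives run for each, except the 2 differences of Map9 between the subsets in its response to a medium. The difference in BimS over WT, -0.01, was 0.0201 with limma on log2(count + 1) and 0.0153 with limma on the deposited normalized values, and ranged from -0.14 to 0.0807 when samples were left out. The difference in RIPK3 over BimS, -0.09, ranged from -0.27 to 0.127 when samples were left out. Sel1l3 with RIPK3 over BimS debris in cDC1s was 0.53 and 0.59 with the same 2 limma fits and ranged from 0.53 to 0.75 when samples were left out. Map9 with BimS over WT in cDC2s was 0.415 with limma on the deposited normalized values. Without cDC2_RIPK3 replicate 2, Map9 with RIPK3 medium in cDC2s was 1.26 over WT and 0.74 over BimS, and over all samples left out these ranged from 1.26 to 1.66 and from 0.74 to 1.15. The lone sample left in that group was then assumed to vary like the others. Sel1l3 with RIPK3 over BimS in cDC2s was 0.079 without the same sample. The cause of these changes was not tested.

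The counts of genes called moved more. With limma on log2(count + 1) they were 1510 for BimS over WT and 403 for RIPK3 over BimS in cDC1s, 148 for RIPK3 over BimS in cDC2s, and 67 and 3 for the interactions of BimS over WT and of RIPK3 over BimS. The latter was also 3 with limma on log2 CPM. DESeq2 gave 141 for RIPK3 over BimS in cDC2s and 261 and 19 for the interactions, filterByExpr gave 46 for RIPK3 over BimS in cDC2s, and no filter gave 300 there and 315 and 25 for the interactions. With all samples in one fit, RIPK3 over BimS gave 269 in cDC1s and 244 in cDC2s, and BimS and RIPK3 over WT gave 2143 and 2104 in cDC2s. With the replicate number as a block, which pairs the samples, RIPK3 over BimS gave 1730 in cDC1s and 2755 in cDC2s, BimS and RIPK3 over WT gave 4103 and 4126 in cDC2s, and the interactions 443 and 27. With the block, Map9 in WT medium again did not pass between the subsets (adjusted p = 0.32 by edgeR). Sel1l3 with RIPK3 over BimS was then 0.61 in cDC1s and 0.26 in cDC2s on the log2 scale.

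With samples left out, the counts ranged from 1987 to 3151 for BimS over WT and from 489 (without cDC1_BimS replicate 3) to 1027 for RIPK3 over BimS in cDC1s. In cDC2s they ranged from 783 (without cDC2_WT replicate 2) to 1504 for BimS over WT, from 622 (without cDC2_RIPK3 replicate 2) to 1819 for RIPK3 over WT, and from 0 (without cDC2_RIPK3 replicate 2) to 214 for RIPK3 over BimS. The interactions ranged from 93 to 234 and from 0 (without cDC2_RIPK3 replicate 2) to 10. The counts of 0 are from edgeR, with 898 and 785 genes at an unadjusted p under 0.05, and no other tool was run without that sample. Of the 6 genes most like each member, a prior count of 0.5 kept 5 and 6, and no centring by cell type 2 and 0. Depth limits Sel1l3 most, with 21 to 56 counts per sample in WT medium.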

Other observations

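Values of the genes next to the members on the chromosome were as follows. Within 500 kb of Sel1l3 stood Anapc4 (238.8 kb before it, 45.5 to 64.2 CPM over the samples), Zcchc4 (282.4 kb before it, 12.9 to 20.4 CPM), Smim20 (53.2 kb after it, 6.58 to 11.55 CPM) and Gm45495 (67.9 kb after it, 0.108 to 1.63 CPM). In the 6 comparisons of media by edgeR, the lowest adjusted p of these 4 genes was 0.138. Gm45495 had log2 fold changes from 0.07 to 0.71, all above 0, at this low level. Before Map9, Gucy1a1 (212.1 kb away) was at 0.162 CPM or less in every sample, too low to compare. Ctso, a lysosomal protease gene 398.1 kb away, had 5.68 to 9.21 CPM and was lower with RIPK3 than with WT medium in cDC1s (log2 fold change -0.36, adjusted p = 0.0333), whereas Map9 was higher there. No gene after Map9 within this distance passed the filter. Promoter windows and proteins of Sel1l3 were not analysed here.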
